A study of Phaseolus vulgaris with 36 samples.

Results

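Filling pods of the wild common bean G12873 were compared with filling pods of the domesticated bean ICA Bunsi (Phaseolus vulgaris). The comparison used the 3 libraries of each accession at stage R8, chosen by their labels, 6 of the 36 libraries of the study. G12873 carries the genotype label wild-type and is described as full dehiscent, meaning that its dry pods split open. ICA Bunsi is labelled domesticated and middle dehiscent. All plants were untreated, and the labels name no transgene, mutation or agent. The study covered 4 accessions at 3 pod stages: R7 with the first pods, R8 with filling pods and R9 with mature pods. The other 2 accessions were the domesticated SXB405, also middle dehiscent, and the domesticated MIDAS, which is indehiscent. Each kind of bean is represented by 1 accession, so accession, wild or domesticated origin and dehiscence cannot be told apart here. Whether replicates were separate plants is not said in the labels. The p-values therefore rest on a spread between libraries that may be technical only.

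In wild beans the mature pod dries and its valves twist apart along the sutures, which scatters the seed. The force comes from lignified fibres in the sutures and from a fibre layer in the pod wall, tissues laid down while the pod grows and fills. Domestication favoured pods in which this opening is reduced or lost. Whole pods hold wall, suture and seed tissue together, so fewer cells of a type and less RNA per cell cannot be told apart. Gene names and products were not available for these identifiers, so genes are given by identifier with no role, and tissue markers were not checked.

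The 6 libraries held between 7987032 and 12131784 estimated counts. A set of 10 abundant genes that go up and down together across the study took 22.7%, 4.61% and 31.3% of the counts in replicates 1, 2 and 3 of G12873. It took 44.1%, 17.9% and 13.5% in those of ICA Bunsi. At least 6169746 counts were left for the other genes in each of the 6 libraries. In 8 libraries of other groups the set took over 50%. These include replicates 1 and 2 of G12873 at R7 and, in ICA Bunsi, replicate 3 at R7 and replicates 1 and 3 at R9. A fit without the 8 libraries leaves G12873 at R7 with replicate 3 alone and ICA Bunsi at R9 with replicate 2 alone, each assumed to vary like the other groups. The loss of a call at R7 or R9, or of stage dependence, in that fit therefore does not by itself show a smaller difference. For the named genes below whose R7 or R9 difference in that fit is given, it was smaller in size than in the main fit. How much of this came from the libraries left out was not tested. Pearson's r of log2 CPM across genes was 0.965 to 0.985 between replicates of a group. CPM means counts per 1000000 after TMM scaling, a correction for library composition.

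At R8 the wild pods differed from the ICA Bunsi pods in 3683 of 20966 genes, 17.6% of those tested. Of these, 1566 were higher in G12873, 7.47% of the genes tested, and 2117 were lower, 10.1%. Calls needed at least a 2-fold difference and, in edgeR's quasi-likelihood test, a p under 0.05 after Benjamini-Hochberg adjustment over all genes tested. The median log2 difference was 1.99 among the genes higher in G12873 and -2.13 among those lower, with genes that had no count in 1 group set to a lower bound. Over all genes tested the median was 0.01. In the higher list 775 genes differed by at least 4-fold and 41 by at least 64-fold. In the lower list the numbers were 1169 and 29. The 3 values of G12873 lay above, or below, all 3 of ICA Bunsi for 1466 of the 1566 higher and 1986 of the 2117 lower genes. Over all genes tested the groups did not overlap for 21.4% in the first direction and 22.2% in the other.

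**Figure D1:**
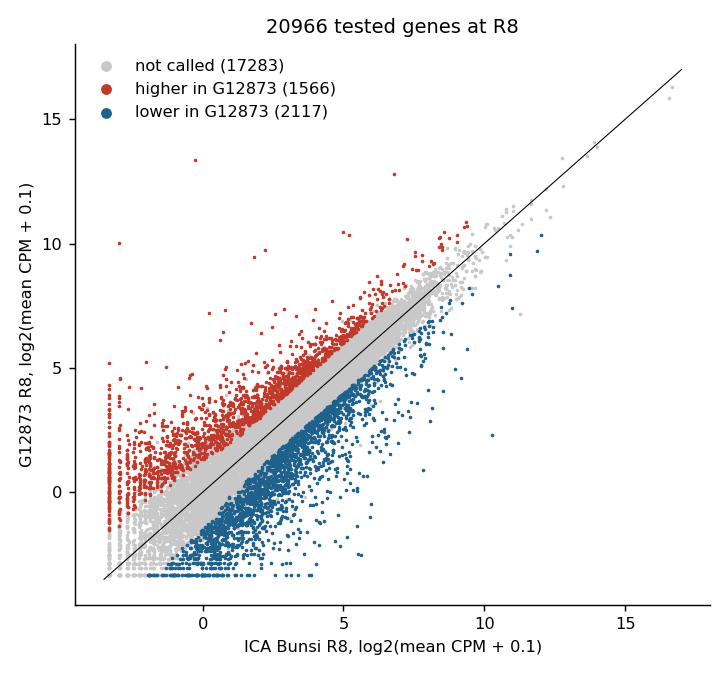
Mean level of each of the 20966 tested genes at R8 in ICA Bunsi (horizontal axis) and G12873 (vertical axis), as log2 of mean CPM plus 0.1, n = 3 libraries each. Red points are the 1566 genes called higher in G12873, blue points the 2117 called lower, and grey points the rest. The line marks equal levels.

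The calls came from genes over a wide range of abundance, as the plot of mean levels at R8 shows. The points on its left and lower edges are genes with no count in 1 group. The numbers of calls depended most on replicate 2 of each accession. Without ICA Bunsi replicate 2, 1047 genes were called higher and 1442 lower. Without G12873 replicate 2 the numbers were 1098 and 1438.

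Phvul.004G158200 was the largest increase among genes with at least 1 CPM in both groups and no overlap. It had 1002, 516 and 565 CPM in G12873 and 1.34, 0.538 and 8.51 CPM in ICA Bunsi. Every wild library stood far above every ICA Bunsi library, of which replicate 3 was the highest. The log2 difference was 7.64 (SE 0.92, adjusted p = 1.39e-06), and 9.52 without ICA Bunsi replicate 3. At R9 the gene was still higher in G12873, with 725 to 889 CPM against 29.4 to 97.9 CPM (log2 difference 3.77, SE 0.77, adjusted p = 0.00164). SXB405 had 277, 922 and 949 CPM at R8, near the wild level, and MIDAS 0.805, 1.94 and 5.13 CPM, near that of ICA Bunsi.

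Phvul.011G183000 had 1380, 620 and 541 CPM in the wild pods against 3.01, 2.15 and 8.49 CPM in ICA Bunsi. The groups did not overlap, and the log2 difference was 7.54 (SE 0.76, adjusted p = 4.41e-08). It was called higher in G12873 at R7 too, by 2.51 on the log2 scale (adjusted p = 0.0147), and at R9, by 8.12 (adjusted p = 6.41e-08). Without the 8 libraries over 50%, with 1 wild library left at R7, the difference there was 2.24 and did not pass the test (adjusted p = 0.148). Here SXB405 and MIDAS stood the other way round from the previous gene. SXB405 was at or under 0.21 CPM at R8, and MIDAS had 239, 162 and 38.8 CPM.

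Phvul.011G209600 was the largest decrease by the same rule. It had 5.66, 2.34 and 6.54 CPM in G12873 and 805, 2578 and 329 CPM in ICA Bunsi. All ICA Bunsi libraries were high, replicate 2 most of all. The log2 difference was -8.01 (SE 1.13, adjusted p = 1.56e-05), and -6.89 without that library. At R7 the order was the reverse, with 530 to 768 CPM in G12873 and 47.2 to 136 CPM in ICA Bunsi (log2 difference 2.79, adjusted p = 0.0496). At R9 both accessions were low, with 1.98 to 2.93 and 6.05 to 17.01 CPM, and the difference did not pass the test (log2 difference -2.23, adjusted p = 0.144). MIDAS had 1281 to 1647 CPM at R8, and SXB405 spread from 17.8 to 520 CPM.

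Phvul.009G158000 was low in the wild pods, with 2.43, 1.36 and 1.45 CPM, and had 216, 320.5 and 149 CPM in ICA Bunsi. No library of G12873 came near those of ICA Bunsi, and the log2 difference was -7.05 (SE 0.94, adjusted p = 6.91e-06). The gene was lower in G12873 at the other stages as well, with log2 differences of -4.09 at R7 (adjusted p = 0.00383) and -6.46 at R9 (adjusted p = 2.34e-05). No stage dependence passed the test for it (adjusted p = 0.145). In SXB405 it had 81.6 to 139 CPM and in MIDAS 30.3 to 37.4 CPM at R8.

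Some of the differences lay in very abundant transcripts. Phvul.010G144300 had 12552, 985 and 7915 CPM in G12873 and 199, 33.9 and 101 CPM in ICA Bunsi. Replicate 2 was the lowest library of each accession, and the groups did not overlap (log2 difference 6.01, SE 0.98, adjusted p = 5.89e-05). Per length of transcript, as TPM, its mean level was 6748 ± 4936 in G12873 and 106 ± 57.7 in ICA Bunsi (SD, n = 3). The high level was not particular to the wild pods, since SXB405 had 9513, 30733 and 26876 CPM at R8. MIDAS had 350 to 576 CPM. Phvul.011G184200 had 1933, 935 and 1359 CPM in the wild pods against 40.8, 22.0 and 30.6 CPM. Its 3 wild libraries were close together and far above ICA Bunsi (log2 difference 5.5, SE 0.54, adjusted p = 1.31e-08). Its TPM was 2546 ± 538 against 54.5 ± 19.5 (SD, n = 3). This gene was higher in G12873 at all 3 stages, with log2 differences of 8.21 at R7 and 6.36 at R9 (adjusted p = 5.84e-10 and 2.66e-09).

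Among abundant genes that were lower in the wild pods, Phvul.007G002400 had 99.1, 139 and 266 CPM in G12873 and 1487, 3772 and 789 CPM in ICA Bunsi. The groups did not overlap (log2 difference -3.59, SE 0.66, adjusted p = 0.000235). The value was -2.76 without ICA Bunsi replicate 2, the highest library. At R7 the 2 accessions stood at 1802 to 5694 and 1519 to 1911 CPM, with no call (adjusted p = 0.393). Phvul.001G251000 had 275, 747 and 1449 CPM in G12873 against 2669, 6678 and 1943 CPM. The lowest ICA Bunsi library was only a little above the highest wild one (log2 difference -2.19, SE 0.51, adjusted p = 0.00221). With only the 6 R8 libraries in the fit this call was lost (log2 difference -2.21, adjusted p = 0.0708), and without ICA Bunsi replicate 2 the difference was -1.49. Mean TPM was 44.7 against 528 for Phvul.007G002400 and 510.1 against 2294 for Phvul.001G251000. At R8 Phvul.007G002400 had 144 to 854 CPM in SXB405 and 3567 to 4253 CPM in MIDAS. For Phvul.001G251000 it was 747 to 2178 CPM in SXB405 and 5262 to 5722 CPM in MIDAS.

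**Figure D2:**
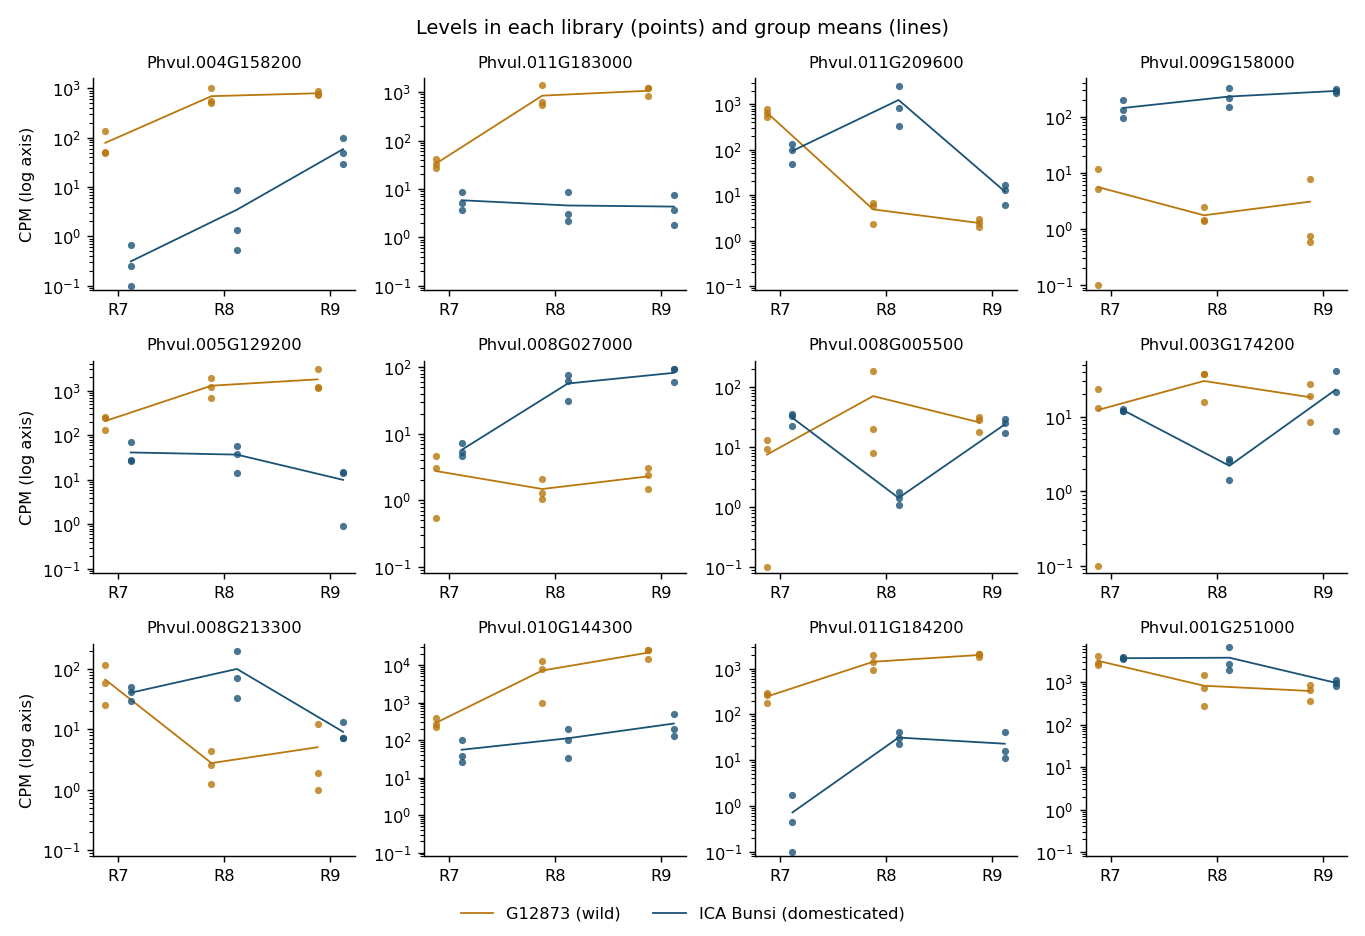
Levels of 12 named genes in G12873 (orange) and ICA Bunsi (blue) at R7, R8 and R9, in CPM on log axes. Points are the 3 libraries of each group, lines join group means, and values at or under 0.1 CPM, 0 included, are drawn at 0.1. At R8 no library of one accession reaches those of the other in these 12 genes. The genes named for the largest differences or for high abundance were chosen by a rule that required this.

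The contrast between the same 2 accessions was then made at R7 and R9, with libraries that are in neither group of the R8 contrast. All 36 libraries shared 1 fit, with its filter, scaling and estimate of spread. With only the 6 R8 libraries in the fit, 1166 genes were higher and 1596 lower at R8. At R7, 945 genes were higher in G12873 (4.51% of those tested) and 599 were lower (2.86%), 7.36% in all. At R9 the numbers were 1046 (4.99%) and 1266 (6.04%), 11% in all. The counts outside the abundant set were only 275179 and 687090 in G12873 R7 replicates 1 and 2 and 908225 in ICA Bunsi R9 replicate 3. Their part in the lower numbers of calls at these stages was not tested.

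Of the 1566 genes higher in G12873 at R8, 470 were also called higher at R9, which is 30.01% of the R8 list and 44.9% of the R9 list. At R7 it was 303 genes, 19.4% of the R8 list and 32.1% of the R7 list. Of the 2117 genes lower at R8, 559 were lower at R9 (26.4% of the R8 list, 44.2% of the R9 list) and 283 at R7 (13.4% and 47.3%). Calls in the opposite direction were fewer. They numbered 22 at R9 and 15 at R7 for the higher list, and 8 and 52 for the lower list. The sign of the difference was kept at R9 by 78.6% of the higher list, where 51.8% of all tested genes were positive. It was kept by 81.3% of the lower list. Across all tested genes, which are not independent replicates, Pearson's r of the log2 differences was 0.59 between R8 and R9 and 0.40 between R8 and R7.

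**Figure D3:**
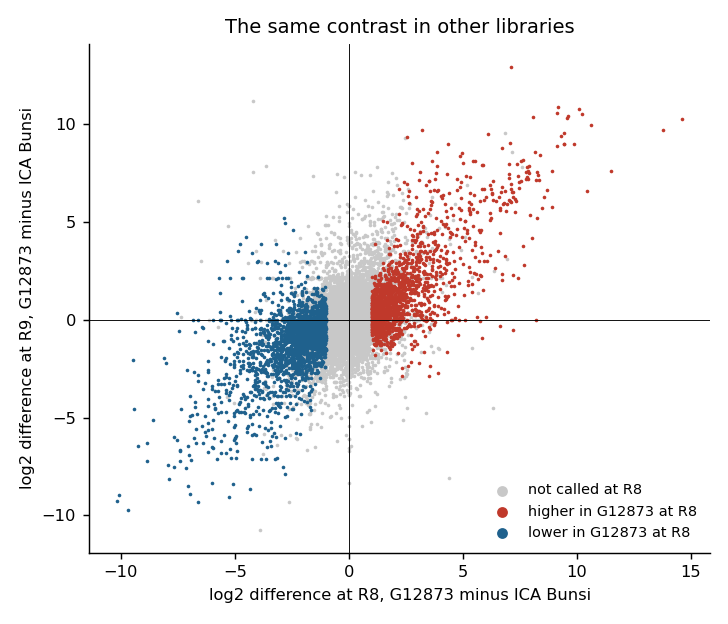
Log2 difference between G12873 and ICA Bunsi at R8 (horizontal axis) and at R9 (vertical axis) for the 20966 tested genes. Red points were called higher and blue points lower in G12873 at R8. Of these, 1231 red and 1720 blue genes have the same sign at R9.

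The differences at R9 were smaller for these lists. The median at R9 was 0.94 in the higher and -0.92 in the lower list, against 1.99 and -2.13 at R8, again with genes without counts in 1 group at their bound. The lists were chosen by their R8 values, so the R8 medians are larger by the choice itself. At R8 alone, with no call in the same direction at R7 or R9, were 999 of the higher and 1450 of the lower genes.

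At all 3 stages 206 genes were called higher in G12873 (0.983% of those tested) and 175 lower (0.835%). Without the 8 libraries over 50%, 105 were lower at every stage. Phvul.005G129200 was higher in the wild pods throughout. At R8 it had 1941, 691 and 1236 CPM against 38.1, 57.7 and 14.2 CPM, with no overlap (log2 difference 5.14, SE 0.57, adjusted p = 1.62e-07). The log2 difference was 2.32 at R7 (adjusted p = 0.00387) and 7.32 at R9 (adjusted p = 2.80e-09). It differed with stage (adjusted p = 0.000347). Without the 8 libraries, again with 1 wild library at R7, the difference there was 1.45 and did not pass (adjusted p = 0.314). SXB405 and MIDAS stayed between 20.6 and 63.9 CPM at R8, in the range of ICA Bunsi or just above it.

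Phvul.008G027000 was called lower in the wild pods at all 3 stages, with 2.09, 1.30 and 1.04 CPM against 62.7, 30.5 and 76.7 CPM at R8. No libraries overlapped at that stage (log2 difference -5.28, SE 0.38, adjusted p = 1.88e-11). The log2 difference was -2.72 at R7 (adjusted p = 0.00185) and -5.16 at R9 (adjusted p = 2.94e-11). It differed with stage (adjusted p = 0.0342). At R7 wild replicates 1, 2 and 3 held only 1.4, 3 and 9 counts of the gene, so that call lies near the limit of counting. Wild replicate 1 had 4.66 CPM there, just under the lowest ICA Bunsi library at 4.67 CPM. SXB405 had 56.4 to 70.5 CPM at R8, like ICA Bunsi, whereas MIDAS had 4.42 to 6.46 CPM.

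Whether the accession difference depended on stage was tested for every gene, with R7 and R9 set against R8. Stage dependence passed the test in 2112 of the 20966 genes, 10.1%. Among the R8 calls it passed in 969, of which 397 were in the higher list (25.4% of it) and 572 in the lower (27.02%). The R8 values chose these lists, so a larger share than among all genes is no result about them. The count of 969 went to 443 without G12873 R8 replicate 2, to 487 without ICA Bunsi R8 replicate 2 and to 307 without the 8 libraries over 50%.

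Phvul.008G005500 stood out at R8 alone. G12873 had 20.3, 183 and 7.88 CPM, with replicate 2 far above the others, and ICA Bunsi had 1.41, 1.79 and 1.09 CPM. The groups did not overlap, and the log2 difference was 5.62 (SE 0.84, adjusted p = 2.90e-05), or 3.28 without G12873 replicate 2. At R9 the accessions overlapped at 18.1 to 31.4 and 17.01 to 29.0 CPM. At R7 ICA Bunsi had 22.3 to 36.1 CPM, so within ICA Bunsi the R8 libraries were the low ones.

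Phvul.003G174200 followed the same order, with 37.1, 37.8 and 16.1 CPM in G12873 and 1.41, 2.53 and 2.68 CPM in ICA Bunsi at R8 (log2 difference 3.77, SE 0.81, adjusted p = 0.00132). ICA Bunsi had 12.1 to 12.6 CPM at R7 and 6.45 to 41.2 CPM at R9. Its stage dependence (adjusted p = 0.0352) was lost without G12873 R8 replicate 1 or 2 or any 1 of the 3 ICA Bunsi R8 libraries, with adjusted p from 0.0626 to 0.0967. It was lost as well with limma-voom (0.0811) and without the 8 libraries (0.127).

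Phvul.008G213300 was the second decrease of this kind, beside Phvul.011G209600. It had 1.27, 2.59 and 4.46 CPM in G12873 and 69.8, 197 and 33.4 CPM in ICA Bunsi at R8, with no overlap (log2 difference -5.17, SE 0.89, adjusted p = 0.000155). Without ICA Bunsi replicate 2 it was -4.21. At R7 the accessions overlapped at 25.3 to 116 and 29.5 to 50.1 CPM. MIDAS had 207 to 243 CPM at R8 and 5.55 to 7.93 CPM at R9. The stage dependence did not pass without the 8 libraries (adjusted p = 0.0979).

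A few genes were called in opposite directions at R8 and R9. Phvul.008G254400 had 1.85, 10.4 and 7.05 CPM in G12873 and 1.32, 1.06 and 1.43 CPM in ICA Bunsi at R8, close together in replicate 1 but not overlapping. The log2 difference was 2.36 (SE 0.69, adjusted p = 0.0135). At R9 the order was reversed, with 0.892 to 3.22 against 6.61 to 29.9 CPM (log2 difference -2.88, adjusted p = 0.00745). The R8 call was lost without G12873 replicate 2 (1.81, adjusted p = 0.108) and without ICA Bunsi replicate 2 (2.24, adjusted p = 0.065). The R9 call was lost without the 8 libraries (-1.58, adjusted p = 0.313).

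Phvul.009G259400 had 0.128, 8.64 and 5.18 CPM in G12873 and 0.697, 0.0855 and 0.464 CPM in ICA Bunsi at R8. The groups overlapped, since wild replicate 1 lay below 2 of the ICA Bunsi libraries (log2 difference 3.50, SE 0.87, adjusted p = 0.00451). Wild replicate 1 held only 1.11 counts of the gene and ICA Bunsi 7.40, 1.05 and 5.53, near the limit of counting. MIDAS had no count of it at R7 or R8. With limma-voom the R8 call was lost (2.75, adjusted p = 0.0514), and without G12873 replicate 2 the R8 difference was 2.68 (adjusted p = 0.0498). At R9 the difference was -2.87 (adjusted p = 0.0301), which did not pass without the 8 libraries (-2.09, adjusted p = 0.372).

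Phvul.001G016700 was lower in G12873 at R8, with 1.502, 1.54 and 1.14 CPM against 3.96, 5.71 and 5.201 CPM and no overlap (log2 difference -1.81, SE 0.44, adjusted p = 0.00285). It was higher at R9, with 1.78 to 2.64 against 0 to 1.87 CPM, where the groups overlapped (log2 difference 2.23, adjusted p = 0.0232). ICA Bunsi replicates 1, 2 and 3 held only 0, 5 and 2 counts of it at R9, so that call lies near the limit of counting. Phvul.005G043500 had 16.4, 9.92 and 11.3 CPM in G12873 and 31.1, 59.3 and 18.6 CPM in ICA Bunsi at R8, with the wild libraries the lower (log2 difference -1.54, SE 0.37, adjusted p = 0.00273). Without ICA Bunsi replicate 2 that call was lost (-0.99, adjusted p = 0.0673). At R9 the gene was higher in G12873, with 12.3 to 13.3 against 2.81 to 6.21 CPM (log2 difference 1.30, adjusted p = 0.0407). The R9 call was lost with limma-voom (1.27, adjusted p = 0.145), and leaving out the 8 libraries ended it too (1.05, adjusted p = 0.375).

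The R8 lists were next read against the stage steps of SXB405 and MIDAS, which share no library with the R8 contrast. From R8 to R9 in MIDAS, 1223 of the 2117 genes lower in G12873 fell, 57.8% of the list, against 16.2% of all genes tested. They made up 36.1% of the genes that fell in that step. Of the 1566 genes higher in G12873, 553 rose in it, 35.3% of the list and 18.6% of the step, against 14.2% of all genes. In this step 30.3% of all genes changed. Opposite calls numbered 123 in the lower and 106 in the higher list. In SXB405 the same step was smaller, with 2.11% of all genes falling and 2.85% rising, 4.96% in all. There 245 genes of the lower list fell (11.6%), 55.4% of all genes that fell in the step, and 151 of the higher list rose (9.64%).

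From R7 to R8 the shares were unlike in the 2 accessions. In SXB405, where 25.2% of all genes changed in this step, 874 genes of the lower list fell, 41.3% of it, against 14.5% of all genes. Of the higher list 323 rose, 20.6% against 10.6% of all genes, while 235 fell. In MIDAS, where 16.8% of all genes changed, the shares lay closer to the background. There 248 genes of the lower list fell (11.7%, against 9.3% of all genes) and 240 rose (11.3%, against 7.5%). Of the higher list 112 rose, 7.15%, and 244 fell, 15.6%. Without ICA Bunsi R8 replicate 2, 1081 genes moved in the same direction as the MIDAS step from R8 to R9, against 1776 with it. For the SXB405 step from R7 to R8 it was 669 against 1197. The R8 lists were themselves shorter without that library, with 1047 higher and 1442 lower genes in place of 1566 and 2117.

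**Figure D4:**
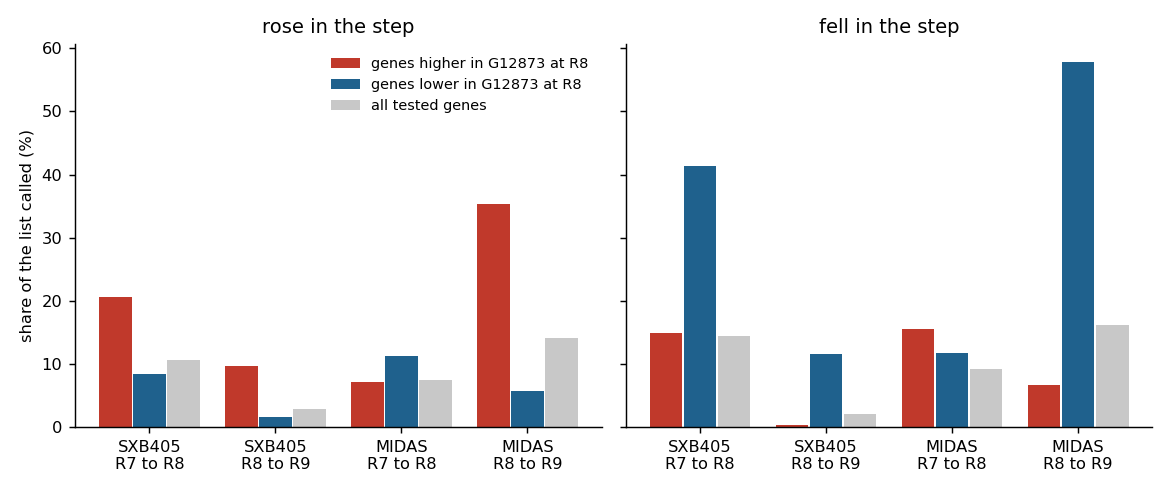
Share of the genes higher (red) and lower (blue) in G12873 at R8, and of all tested genes (grey), that rose (left) or fell (right) in 4 stage steps of SXB405 and MIDAS, in percent. Each bar starts at 0. The tallest is the lower list in the step from R8 to R9 of MIDAS, where 57.8% of its genes fell.

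A stage score was computed for each library from genes that rose or fell in both SXB405 and MIDAS, as the mean log2 CPM of the risers minus that of the fallers. No value of G12873 or ICA Bunsi chose these genes. For the step from R7 to R8, with 330 risers and 801 fallers, the R8 scores were 4.69, 4.20 and 4.55 in G12873 and 4.60, 3.49 and 4.49 in ICA Bunsi. These overlapped, with ICA Bunsi replicate 2 the lowest. For the step from R8 to R9, with 251 risers and 348 fallers, they were 0.56, 0.92 and 0.19 in G12873 and -1.69, -2.80 and -1.14 in ICA Bunsi. These did not overlap, and replicate 2 was the lowest ICA Bunsi library again. On this score the wild R8 libraries lay near the R9 libraries of G12873, at 0.67 to 1.57, and of ICA Bunsi, at 1.20 to 1.37. The ICA Bunsi R8 libraries lay between its own R7 libraries, at -2.82 to -2.73, and its R9 ones, with replicate 2 at the R7 level. How far the R8 calls follow from a difference in how mature the pods of the same stage label were was not tested, and it cannot be told apart from the accession in this contrast.

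**Figure D5:**
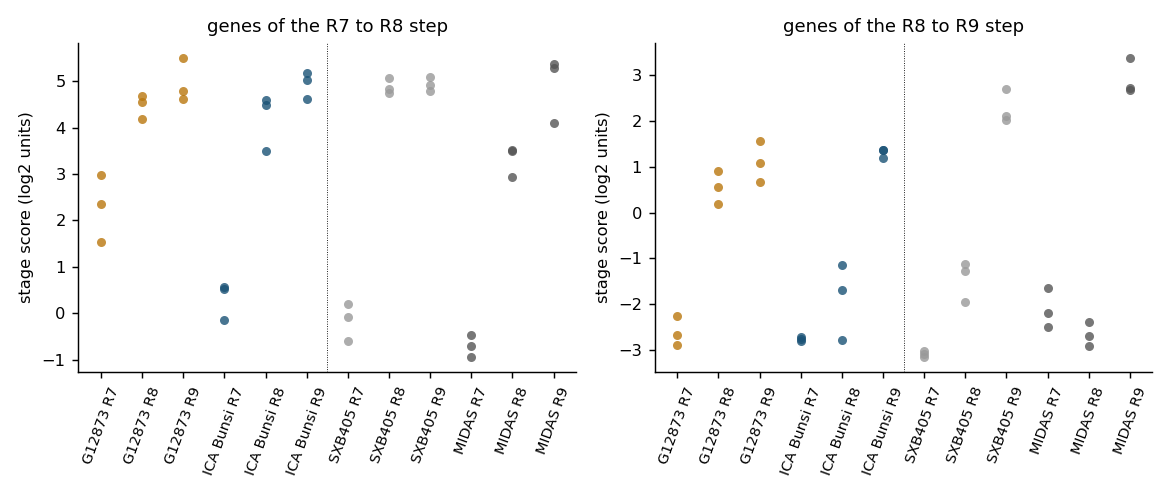
Stage score of every library, in log2 units, from genes that rose or fell from R7 to R8 (left) or from R8 to R9 (right) in both SXB405 and MIDAS. Each point is 1 library. The genes were chosen on the SXB405 and MIDAS libraries to the right of the dotted line, so their own scores are high or low by choice. On the right, G12873 at R8 lies at 0.19 to 0.92 and ICA Bunsi at R8 at -2.80 to -1.14.

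The wild R8 libraries were also set against the other stages of ICA Bunsi. These contrasts share the wild libraries with the R8 contrast, so their counts are given side by side only. Against ICA Bunsi R9, 1331 genes were higher in G12873 R8 (6.35%) and 1448 lower (6.91%), 2779 or 13.3% in all. Against ICA Bunsi R7, 3422 were higher (16.3%) and 3562 lower (17%), 33.3% in all. The contrast at matched stage, with 3683 calls, lay between the 2. ICA Bunsi R9 replicates 1 and 3 are among the 8 libraries over 50%. Without those libraries, with R9 replicate 2 alone and its spread taken from the other groups, the contrast to ICA Bunsi R9 had 1152 calls.

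At R8 itself, SXB405 stood nearer to ICA Bunsi than to G12873 in most genes of the lists. Its mean log2 level was nearer to G12873 for 457 of the 1566 higher genes, 29.2%, and for 942 of the 2117 lower ones, 44.5%. MIDAS was nearer to G12873 for 503 of the higher genes, 32.1%, and for 450 of the lower ones, 21.3%. The same shares over all tested genes were not computed. The R8 values of G12873 and ICA Bunsi chose the lists, so these shares only describe them. The median log2 CPM of the lower list was 0.67, 0.45 and 0.72 in the wild R8 libraries and 2.57, 3.03 and 2.36 in those of ICA Bunsi. It was 1.52 to 2.13 in SXB405 and 2.73 to 2.92 in MIDAS. For the higher list the wild libraries had 3.19, 3.40 and 3.09 and those of ICA Bunsi 1.18, 1.00 and 1.44. SXB405 had 1.52 to 2.01 and MIDAS 1.78 to 2.09, nearer to ICA Bunsi in each library.

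In 31 genes no count was found in any of the 9 ICA Bunsi libraries, meaning an estimated count under 0.5 in each, while each R8 library of G12873 had at least 10 counts. The reverse held for 8 genes. Of the 31 genes, 11 had no count in SXB405 either, 5 had none in MIDAS and 1 had none in both. Of the 8 genes, none lacked counts in SXB405 and 1 lacked them in MIDAS. A count of 0 is an upper limit, set by 3 counts over the 3 libraries of a group at R8, and it covers counting error only. Reads from an allele that differs from the reference transcript can also fail to be counted, which was not tested.

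Phvul.003G003700 had 17.2, 19.9 and 22.9 CPM in the wild pods and no count in ICA Bunsi, so it was at least 232-fold higher in G12873 at R8. SXB405 had 9.61 to 13.4 CPM at R8, and MIDAS was under 1 CPM. Phvul.L001601, on an unplaced scaffold, had 13.4, 15.5 and 16.3 CPM in the wild pods and was at least 175-fold higher. Both SXB405 and MIDAS had counts of it, at 10.4 to 23.0 CPM, so ICA Bunsi alone had no count at R8.

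In the other direction Phvul.008G128300 had 11.98, 15.6 and 12.9 CPM in ICA Bunsi and no count in the wild pods, at least 155.5-fold lower in G12873. It was counted in every R8 library of SXB405 and MIDAS, at 2.70 to 20.8 CPM. Phvul.010G036100 had 4.33, 0.897 and 3.52 CPM in ICA Bunsi and was at least 33.6-fold lower in the wild pods. ICA Bunsi had no count of it at R7 either.

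Last, the share of each transcript within its gene was compared at R8 in 4177 genes. The share differed in 112 genes, 2.68% of those tested, at an adjusted p under 0.05 and a change of at least 20 percentage points. In 74 of the 112 the main transcript of the 2 accessions was not the same. The total of the gene was called in 12 of the 112, beside 17.6% of all genes in the test of totals. That test covered 20966 genes, a wider set, and the share called among the 4177 was not computed. On simulated data this rule made 36 false calls among 161. At an adjusted p under 0.001, where the simulation made 0, only 10 of the real genes were called. The count also ranged from 40 to 94 when 1 library was left out, and it was 272 with only the 6 R8 libraries in the fit. Single reads of 75 bases seldom tell transcripts of a gene apart directly, and alleles that differ from the reference can move counts between them, which was not tested.

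Of the 4 genes named here, Phvul.011G210000 and Phvul.007G009900 passed the stricter threshold. In Phvul.011G210000 the longer transcript, with 1459 bases against 1395, took 100%, 92.3% and 92.7% of the counts in the wild pods. In ICA Bunsi it took 2.82%, 0% and 0% (adjusted p = 5.57e-09). The accessions did not overlap, and SXB405 and MIDAS were on the wild side with 78.7% to 93.4%. At R7 and R9 the share was 0% in all 6 ICA Bunsi libraries and 91.5% to 100% in 5 of the 6 wild ones. In G12873 R7 replicate 1 it was 0%, of only 5 counts. The level of the whole gene was similar, at 20.1 to 27.3 CPM against 26.5 to 28.0 CPM (log2 difference -0.19, adjusted p = 0.582). In Phvul.007G009900 the shorter transcript, with 793 bases against 844, took 98.0%, 96.3% and 100% in the wild pods. In ICA Bunsi it took 8.02%, 0% and 7.32% (adjusted p = 1.62e-05). SXB405 and MIDAS were nearer to ICA Bunsi for this gene at R8, with 4.70% to 38.3%. At R7 the R8 order held for wild replicate 3 alone, with 98.7% against 66.4%, 60.9% and 45.3% in ICA Bunsi. Wild replicates 1 and 2 had 0% there. They held only 6 and 27 counts of the gene, against 1334 in replicate 3, and the cause of the 0% was not tested. At R9 G12873 had 94.8% to 97.3% and ICA Bunsi 25.9%, 9.50% and 89.3%. The share of this transcript thus varied between stages and between replicates of a group. Its R8 values are not read as a stable difference between the accessions.

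The other 2 genes passed the first threshold only. In Phvul.010G138100 the longer transcript, with 1317 bases against 1314, took 93.6% to 100% in the wild pods and 3.93% to 8.04% in ICA Bunsi (adjusted p = 0.0107). In Phvul.002G291500 the shorter, with 2757 bases against 2760, took 92.2% to 95.3% against 0% to 13.1% (adjusted p = 0.0117). That call was lost without ICA Bunsi replicate 1 (adjusted p = 0.0556). In neither gene did the accessions overlap at R8. At the other stages the shares switched between replicates of a group. For Phvul.010G138100 the longer transcript took 0%, 100% and 79.2% in G12873 at R7, where replicates 1 and 2 held only 3 and 33 counts. It took 7.91%, 100% and 100% in G12873 at R9, and 4.39%, 100% and 98.96% in MIDAS at R7. It stayed at 0% to 5.24% in ICA Bunsi at R7 and R9. For Phvul.002G291500 the shorter transcript took 92.4%, 89.6% and 77.1% in ICA Bunsi at R7, near the wild level, and 89.8%, 0% and 71.8% at R9. The R8 values of these 2 genes are therefore not read as a stable difference between the accessions. The transcripts of each pair differ in length by only 3 bases.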

How the data were processed

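Per the labels' protocols, pod RNA went into TruSeq libraries that were read from one end over 75 bases. The submitters' processing notes name kallisto, limma and edgeR without versions. Not given in the sources used here are the genome build, the annotation and the strand setting. Estimated counts per transcript, as the authors deposited them, carry no normalization and need not be whole. TPM values were deposited by the authors, scaled for length and to 1000000 per library. They entered no test.

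Estimated counts of 36995 transcripts were summed over the transcripts of 27433 genes and rounded. edgeR 4.0.16 (R 4.3.3) was fitted over all 36 libraries in 12 groups of 3, with filterByExpr (at least 10 counts, at least 15 in total), TMM scaling and a robust quasi-likelihood fit. The filter removed 6467 genes. Calls needed an adjusted p under 0.05 over all 20966 genes and a log2 difference of at least 1 in size. Standard errors came from the F statistic. CPM used TMM-scaled sizes, with a prior count of 2 on the log scale. Stage dependence was a quasi-likelihood F-test of the R8 difference against those at R7 and R9. Transcript shares were tested with edgeR's diffSpliceDGE. Total counts of the 6 libraries compared were 7987032 to 12131784, and replicates differed by more than sampling noise. Their numbers did not pair the libraries. A reference table of 34165 genes matched 0 identifiers, so planned lists of genes by product were not used.

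On simulated data for this contrast, run on 20779 genes, 28% of 2-fold and 83% of 4-fold changes were called, with 1 false call. Of the 4-fold changes, 52% passed for stage dependence, with 3 false calls. The usage simulation ran on 3818 genes and recovered 62.5% of 200 exchanges.

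The members, lists, tests and named genes were chosen with earlier results of these data known. At most 2 identifiers up and 2 down were named per class, with at least 1 CPM in both groups except in the 2 classes of opposite calls and of genes without counts. The classes were the largest R8 differences without overlap, the most abundant calls of at least 4-fold, genes called at all 3 stages, genes with a difference mainly at R8, genes called oppositely at R9, genes without counts in 1 accession, and transcript shares that differ in genes of at least 10 CPM not called as a whole. Alternatives were limma-voom (limma 3.58.1), DESeq2 1.42.0, no count filter, a fit that drops the 50 most abundant genes, RLE size factors, no minimum fold, fewer libraries in the fit, transcripts in place of genes, a replicate block and single libraries left out. The score for the step from R8 to R9, the list levels and the stricter usage threshold were added after seeing the data. Tables were read with Python 3.11.15 and pandas 2.3.3, and plots drawn with matplotlib 3.10.9.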

Additional observations from a re-analysis of the deposited data

Results flagged for a closer look

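The accession difference at R8 was unlike that at R7, at R9 or at both in 969 of the genes called at R8. The test took both stages jointly, so it does not say which of them differed from R8. Among the named genes, those with a difference mainly at R8 had adjusted p-values for stage dependence of 0.000481 (Phvul.008G005500), 0.0352 (Phvul.003G174200), 0.000165 (Phvul.011G209600) and 0.00716 (Phvul.008G213300). Those called in opposite directions at R8 and R9 had 0.00453 (Phvul.009G259400), 0.00388 (Phvul.008G254400), 0.00103 (Phvul.001G016700) and 0.00597 (Phvul.005G043500). All 8 were chosen by a rule that used these differences, so the p-values describe them and support nothing further. Without the 8 libraries in which the abundant set took over 50%, which leaves a lone library in the wild R7 group and in ICA Bunsi R9, stage dependence did not pass for Phvul.003G174200 (0.127), Phvul.008G213300 (0.0979), Phvul.009G259400 (0.0706) and Phvul.005G043500 (0.0826).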

How the results depend on the processing

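The numbers of calls at R8 stayed within 1.5 times of 1566 and 2117 under every setting tried except transcripts in place of genes, which gave 877 higher and 1157 lower. Leaving out 1 library gave 1047 to 1592 higher and 1438 to 2133 lower. The share of calls that were lower in G12873 moved by under 10 percentage points throughout. Stage dependence among the R8 calls covered 466 genes with only the 18 libraries of the 2 accessions, 307 without the 8 libraries over 50%, and 443 to 1078 when 1 library was left out. Without the 8 libraries, which leaves a lone library in the wild R7 group and in ICA Bunsi R9, 105 genes were lower in G12873 at all 3 stages and the contrast of G12873 R8 with ICA Bunsi R9 had 1152 calls. When 1 library was left out, genes moving with the MIDAS step from R8 to R9 numbered 1081 to 1917. Those moving with the SXB405 step from R7 to R8 numbered 669 to 1333. The R8 lists they come from changed in length as well. Transcript usage called 272 genes with only the 6 R8 libraries, 10 at an adjusted p under 0.001 and 40 to 94 when 1 library was left out. Genes without a count in ICA Bunsi numbered 47 with a minimum of 5 counts in the other accession, 18 with 20 and 47 on the R8 libraries only. In G12873 they numbered 16, 2 and 18. The causes of these shifts were not tested beyond what the settings themselves remove. Among named genes with counts in both accessions, no called log2 difference changed sign under any setting run. Numbers of genes and sizes of share changes could not show a change of direction. With the replicate block, 1549 genes were higher and 2062 lower. Same-numbered libraries of the 2 accessions deviated with correlations of 0.05, -0.01 and -0.07, so the numbers do not pair them. Of the values for single named genes, 605 kept their side of the threshold and 22 lost it. Depth limits genes near 3 counts, which is 0.185 to 0.347 CPM in the 6 libraries. At the other stages this limit was higher in some libraries. It was 9.96 and 3.03 CPM in G12873 R7 replicates 1 and 2, and 1.42 and 2.81 CPM in ICA Bunsi R9 replicates 1 and 3.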

Other observations

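Some called genes lay next to each other. Runs of at least 4 neighbouring tested genes called in the same direction at R8 numbered 26, of which 14 were higher and 12 lower in G12873. The longest held 7 genes, Phvul.011G183600 to Phvul.011G184200, all higher in G12873. Their R8 means were 27.1 to 1409 CPM in G12873 and 0.672 to 73.2 CPM in ICA Bunsi, and 6 of the 7 were called higher at R9 too. The R8 means of these genes were 0 to 77.9 CPM in SXB405 and 0 to 612 CPM in MIDAS. The next held 6 genes, Phvul.004G157900 to Phvul.004G158400, with means of 10.9 to 10440 CPM in G12873 and 0.0272 to 18.1 CPM in ICA Bunsi. In SXB405 the means of this run reached 14330 CPM and in MIDAS 73.9 CPM. Among genes lower in G12873, 5 neighbours from Phvul.010G047000 to Phvul.010G047800 had at most 0.532 CPM in G12873 and 0.429 to 9.70 CPM in ICA Bunsi. All 5 were called lower at R9 as well and 4 at R7. Another 5, Phvul.004G129500 to Phvul.004G129900, had at most 3.03 CPM in G12873 and 0.78 to 77.99 CPM in ICA Bunsi, and 1 of them was called lower at R9. Counts of near-identical neighbours share reads and are uncertain. By chromosome, the share of tested genes called higher ran from 6.24% on chromosome 7 to 9.25% on chromosome 5, and the share called lower from 8.7% on chromosome 9 to 11.7% on chromosomes 4 and 5. These runs and shares were described after the values were seen, and no test was made of them.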
